A study of Danio rerio with 34 samples.

Results

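Genes that mark the lining of the gut were read in each testis library, to see whether they were high together in the same testes. The count tables hold 35117 identifiers, and the set names 6 genes: cdh17, vil1, fabp2, fxyd12, cdx1b and slc15a1b. They were selected on their levels in earlier results of these same RNA libraries, where several were high after exposure, so their levels and changes are given as a description, with no test. The name table lists 3 of them under the human symbols CDH17 (ENSDARG00000005112), VIL1 (ENSDARG00000040466) and FABP2 (ENSDARG00000006427), which are used here, and fxyd12 is ENSDARG00000103639. For slc15a1b the table gives only the symbol SLC15A1, shared by 2 identifiers, ENSDARG00000044528 and ENSDARG00000100315, and both are given. The gene cdx1b was not analysed here. The members thus came to 6 identifiers, and all 6 passed the filter on low counts.

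Enterocytes, the absorptive cells of the intestine, carry a brush border of microvilli on the side facing the gut lumen. Villin, the product of VIL1, bundles the actin filaments inside those microvilli, and SLC15A1 (PepT1) carries dipeptides and tripeptides across their membrane. FABP2, the intestinal fatty acid-binding protein, binds fatty acids in the enterocyte cytoplasm. CDH17, or liver-intestine cadherin, joins neighbouring epithelial cells, and in zebrafish it is also widely used as a marker of kidney tubules. The gene fxyd12 belongs to the FXYD family of small membrane proteins that modulate the sodium pump, and cdx1b encodes a caudal-type transcription factor of the intestine.

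The samples were testes of adult zebrafish given the carrier DMSO (6 RNA libraries), 3 nM PCB126 (6) or 10 nM PCB126 (6). PCB126 is a chlorinated pollutant that acts like dioxin, by binding the aryl hydrocarbon receptor, and exposed fish had 24 h of it and then 7 days in clean water before sampling. No source used here gives the strain, the exact age or whether a library came from 1 fish or several. P-values therefore measure the spread between libraries that the series calls biological replicates. DNA methylation samples of the series were not used here.

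The shallowest library held 16.24 M counts (M, 1e6), the deepest 29.85 M and the median library 26.56 M. Levels are in CPM, counts per 1e6 counts of the scaled library total, and 3 counts equal 0.0914 to 0.194 CPM depending on the library, which covers counting error only. Transcripts of cyp1a, a cytochrome P450 gene switched on by the aryl hydrocarbon receptor, reached 2.43 to 4.85 CPM in DMSO testes, 409 to 1001 CPM at 3 nM and 815 to 2543 CPM at 10 nM. On the first principal component, holding 39.7% of the variance, 5 exposed libraries lay apart, namely 3 nM replicates 4 and 6 and 10 nM replicates 1, 5 and 6. They also had the highest shares of counts from 13 mitochondrial genes, 3.8% to 7.22%, against 1.68% to 3.56% in the other 13 libraries. Genes of the testis list, such as DDX4 and SYCP3, summed to 11489 to 14444 CPM over the 18 libraries, and 0 of its 26 identifiers had a count of 0.

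CDH17, VIL1, FABP2 and fxyd12 were high in a few exposed testes, not in a whole group. All 4 stood at 2 or more times their median of the 18 libraries in 3 nM replicate 1 and in 10 nM replicates 1 and 5. The next was DMSO replicate 1, with 2 of the 4 at that level. FABP2 in 10 nM replicate 1 stood at 2.255 times its median, from 16 counts, below the 2.274 times of DMSO replicate 1. The SLC15A1 identifiers are left out of these counts. Of them, ENSDARG00000100315 stood at 2.71 and 2.14 times its median in 10 nM replicates 1 and 5, and at 0.636 times in 3 nM replicate 1. The share of all genes at 2 or more times their median is not given here. At 4 or more times the median, the counts were 3 genes in 3 nM replicate 1, 2 genes in 10 nM replicate 1, 3 genes in 10 nM replicate 5, 1 gene in 10 nM replicate 6 and 0 genes in each of the other 14 libraries. Of all 24053 genes tested, 0.37%, 1.91%, 2.49% and 1.8% stood at 4 or more times their median in those 4 libraries, in the same order. These folds were computed after adding 0.25 CPM to both levels. In bulk tissue, more cells of a type and more RNA per cell cannot be told apart.

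CDH17 had 2.49, 3.53 and 4.36 CPM in DMSO testes, 2.43, 3.2 and 30.6 CPM at 3 nM, and 2.15, 4.36 and 122 CPM at 10 nM (lowest, median and highest of 6 each). The high libraries were 10 nM replicate 5 at 122 CPM, 10 nM replicate 1 at 106 CPM and 3 nM replicate 1 at 30.6 CPM, and the next, 10 nM replicate 2, had 4.78 CPM. So 15 of the 18 testes lay within a narrow band, in which all 3 groups overlap. The log2 fold change was 3.55 ± 1.0 (SE) at 10 nM over DMSO and 1.17 ± 0.93 at 3 nM over DMSO. Without 10 nM replicates 1 and 5 the first was 0.10 ± 0.62, and without 3 nM replicate 1 the second was -0.12 ± 0.86.

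VIL1 had 1.44, 1.90 and 3.01 CPM in DMSO testes, 1.70, 2.22 and 6.15 CPM at 3 nM, and 1.65, 4.91 and 11.3 CPM at 10 nM (lowest, median and highest). Here 4 libraries were high: 3 nM replicate 1 (6.15 CPM) and 10 nM replicates 1 (7.59 CPM), 5 (9.05 CPM) and 6 (11.3 CPM). The other 3 libraries at 10 nM lay inside the DMSO range. Replicate 6 at 10 nM, the highest for VIL1, was at the group median or below for CDH17 and fxyd12. The log2 fold change of VIL1 was 1.45 ± 0.46 (SE) at 10 nM over DMSO and 0.45 ± 0.45 at 3 nM over DMSO. It was 1.06 ± 0.49 at 10 nM over DMSO without replicates 1 and 5, and -0.06 ± 0.38 without the 5 libraries that lay apart.

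FABP2 was close to the detection limit in most testes, with 4 counts in each of 4 DMSO libraries. It had 0.137, 0.189 and 0.865 CPM in DMSO testes, 0.135, 0.294 and 21.9 CPM at 3 nM, and 0.0767, 0.457 and 12.5 CPM at 10 nM (lowest, median and highest). Only 3 nM replicate 1 (563 counts) and 10 nM replicate 5 (194 counts) had more than 1 CPM, and all 3 groups overlap. In 10 nM replicate 1, which had the second highest CDH17 level, FABP2 was 0.856 CPM from 16 counts, no higher than in DMSO replicate 1 (0.865 CPM, 23 counts). The log2 fold change of FABP2 was 2.99 ± 1.42 (SE) at 10 nM over DMSO and 3.73 ± 1.44 at 3 nM over DMSO. Without 10 nM replicate 5 alone the first was 0.38 ± 1.28, and without 3 nM replicate 1 the second was 0.25 ± 1.11.

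Levels of fxyd12 covered the widest range of the members between testes. It had 0.0343, 0.167 and 1.47 CPM in DMSO testes, 0.128, 0.273 and 27.7 CPM at 3 nM, and 0.153, 0.335 and 184 CPM at 10 nM (lowest, median and highest). Replicate 5 at 10 nM held 2840 counts, 3 nM replicate 1 held 712 and 10 nM replicate 1 held 219, whereas the next, DMSO replicate 1, held 39. The 3 high libraries are those of CDH17, and the medians of the 3 groups lie close together. The log2 fold change of fxyd12 was 6.36 ± 1.99 (SE) at 10 nM over DMSO and 3.61 ± 1.83 at 3 nM over DMSO. It was 2.63 ± 1.53 at 10 nM over DMSO without replicate 5, and -0.52 ± 1.60 without replicates 1 and 5, while the 3 nM value was -0.52 ± 1.76 without replicate 1.

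Neither SLC15A1 identifier was high in all of the testes with high CDH17. ENSDARG00000044528 had 0.248, 0.880 and 0.947 CPM in DMSO testes, 0.235, 1.17 and 1.32 CPM at 3 nM, and 0.743, 1.19 and 1.51 CPM at 10 nM (lowest, median and highest), and its lowest libraries were replicate 4 of DMSO and of 3 nM. ENSDARG00000100315 had 0.872, 1.63 and 2.71 CPM in DMSO testes, 1.13, 2.01 and 3.01 CPM at 3 nM, and 1.11, 2.31 and 5.61 CPM at 10 nM. For the second identifier 10 nM replicates 1 (5.61 CPM) and 5 (4.39 CPM) were the highest of the 18, but 3 nM replicate 1, at 1.13 CPM, was among the lowest. Log2 fold changes at 10 nM over DMSO were 0.58 ± 0.36 (SE) for ENSDARG00000044528 and 0.81 ± 0.37 for ENSDARG00000100315. At 3 nM over DMSO they were 0.39 ± 0.36 and 0.28 ± 0.36, in the same order.

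At 10 nM over 3 nM, the log2 fold changes were 2.38 ± 0.95 (SE) for CDH17, 1.0 ± 0.45 for VIL1, -0.74 ± 1.25 for FABP2 and 2.75 ± 1.62 for fxyd12. FABP2 differed in sign from the others, and its highest library was a 3 nM testis. Without 10 nM replicate 5 alone, fxyd12 turned to -0.97 ± 1.42, and without 3 nM replicate 1 alone, FABP2 turned to 2.71 ± 1.1. The CPM ranges of the groups overlapped for all 6 identifiers in each of the 3 comparisons. Of all genes tested, ranges did not overlap for 6.13% in 10 nM against DMSO, 1.73% in 3 nM against DMSO and 0.79% in 10 nM against 3 nM.

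**Figure D1:**
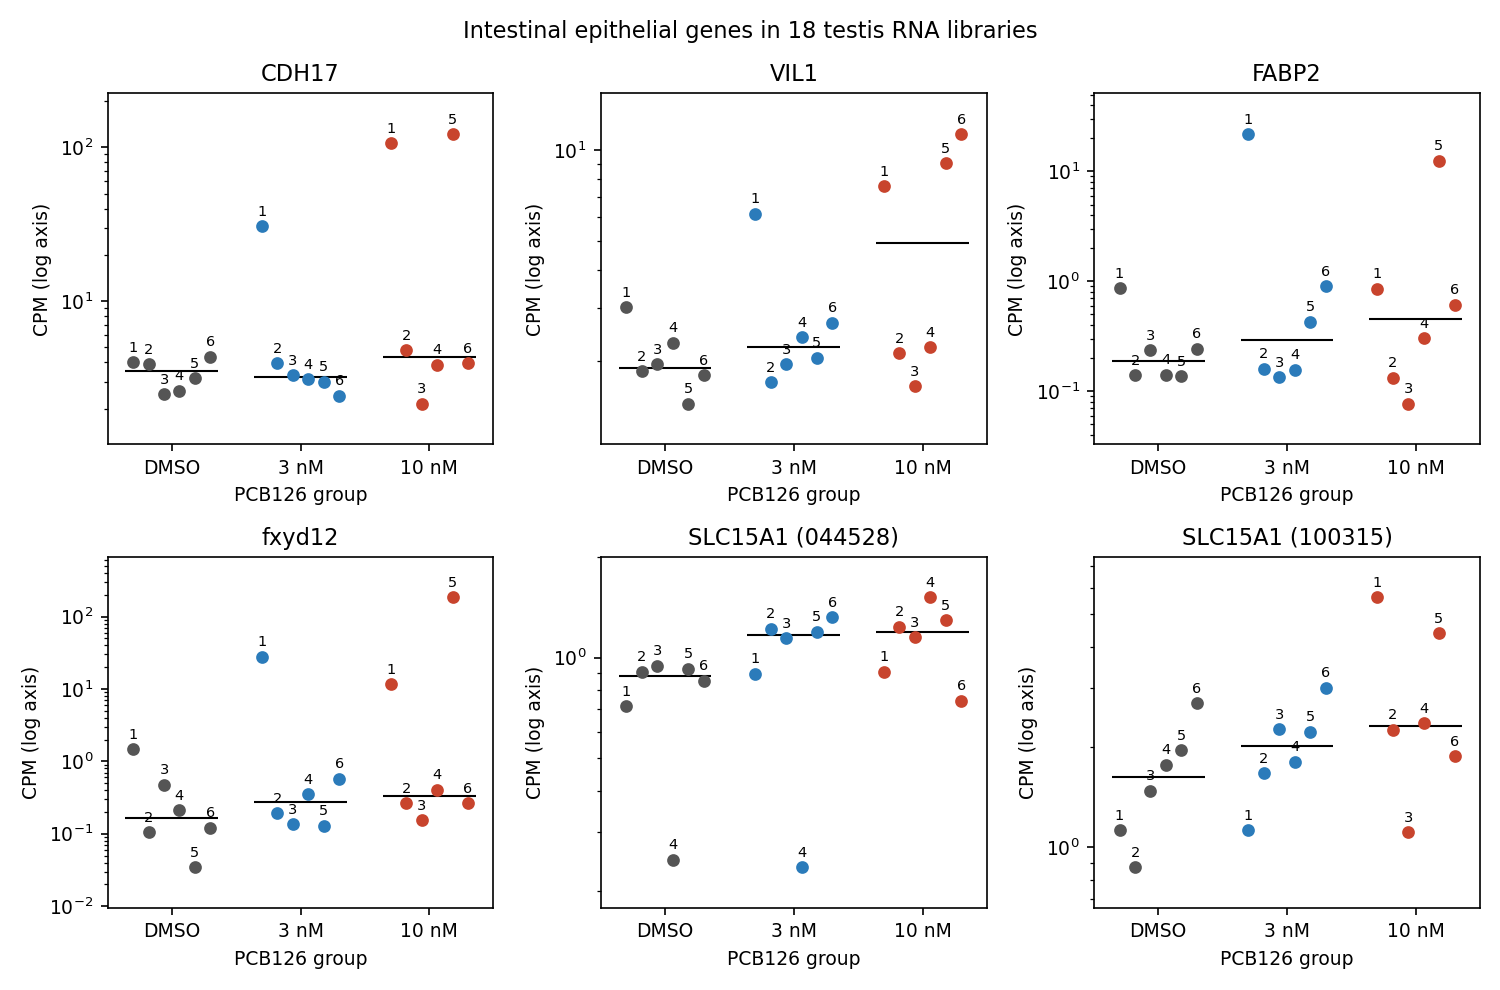
Level of each member in the 18 testis RNA libraries, in CPM on a log axis, by group, where each point is 1 library with its replicate number and the black line is the group median. CDH17 and fxyd12 stand out in 3 nM replicate 1 and in 10 nM replicates 1 and 5. FABP2 stands out in 3 nM replicate 1 and 10 nM replicate 5. VIL1 stands out in the libraries named for CDH17 and also in 10 nM replicate 6 at 11.3 CPM. Of the SLC15A1 identifiers (last 6 digits given), ENSDARG00000100315 is highest in 10 nM replicates 1 and 5 but low in 3 nM replicate 1. ENSDARG00000044528 does not follow.

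The plot of the members by group shows that the high testes were the same for several genes but that the order among them changed from gene to gene. CDH17 and fxyd12 were highest in 10 nM replicate 5, FABP2 in 3 nM replicate 1, VIL1 in 10 nM replicate 6 and the second SLC15A1 identifier in 10 nM replicate 1.

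The proportions between the members differed widely between the high testes. For every 100 counts of CDH17 there were 71.6 counts of FABP2 in 3 nM replicate 1, 0.807 in 10 nM replicate 1 and 10.3 in 10 nM replicate 5, against 3.57 to 21.5 in DMSO testes. For fxyd12 the same ratio was 90.6, 11 and 150 in those libraries, against 1.09 to 36.4 in DMSO testes. For VIL1 it was 20.1, 7.16 and 7.41, and 288 in 10 nM replicate 6, against 41.3 to 87.8 in DMSO testes. So the testis with the second highest CDH17 level had little FABP2, and the testis with the highest VIL1 level had little CDH17 beside it.

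As a share of the summed counts of the 4 genes, CDH17 made up 35.4% in 3 nM replicate 1 (95% Clopper-Pearson interval 33.4% to 37.5%, 2219 counts), 84.0% in 10 nM replicate 1 (82.5% to 85.5%, 2360 counts) and 37.3% in 10 nM replicate 5 (36.0% to 38.7%, 5064 counts). In 10 nM replicate 6 it made up 24.4% (20.1% to 29.1%, 369 counts), and in DMSO testes 43.0% to 66.8% of 87 to 249 counts. The interval of 10 nM replicate 1 does not overlap that of the other 3 high libraries. Some DMSO testes also did not overlap each other, such as replicate 1 (36.7% to 49.4%) and replicate 2 (57.5% to 72.2%). A gap between intervals is therefore not particular to the high testes. These intervals cover counting error only.

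**Figure D2:**
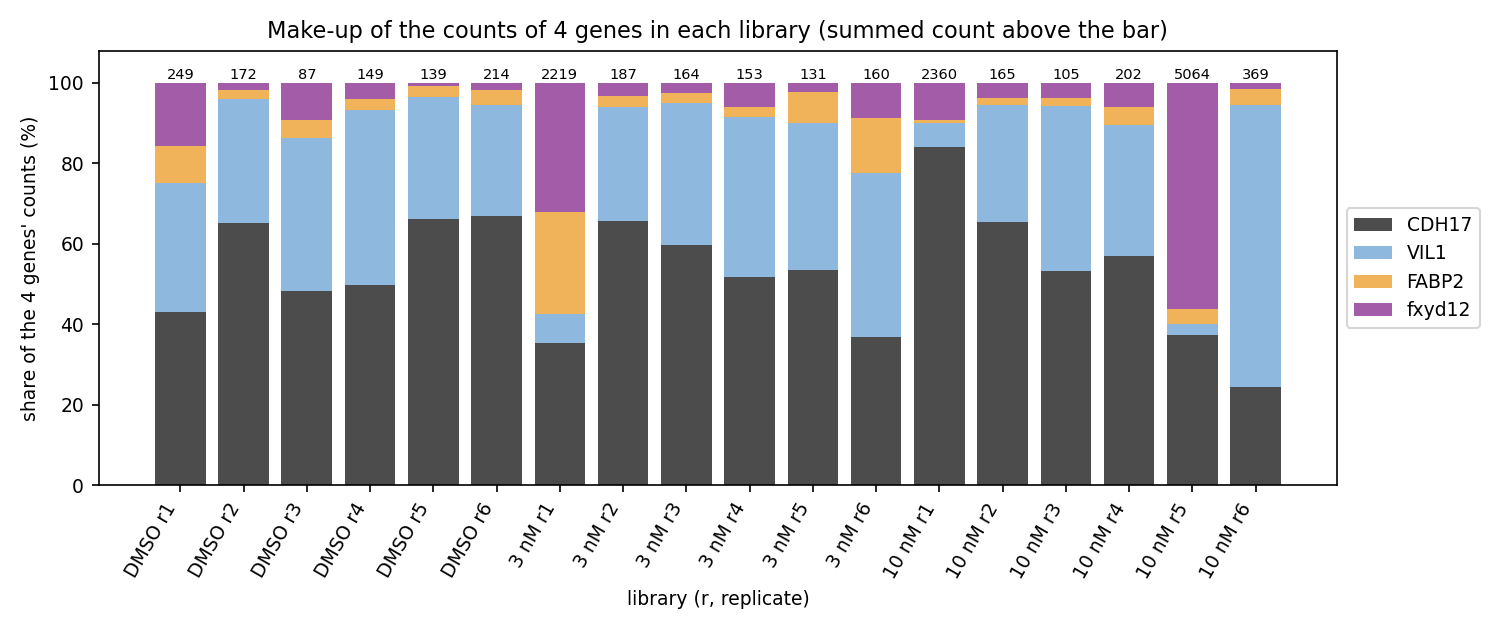
Make-up of the counts of CDH17, VIL1, FABP2 and fxyd12 in each of the 18 libraries, as a percentage of their summed count, which stands above each bar. CDH17 fills 84.0% of the bar in 10 nM replicate 1, whereas FABP2 and fxyd12 take a visible part in 3 nM replicate 1, fxyd12 fills most of 10 nM replicate 5 and VIL1 fills most of 10 nM replicate 6.

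The plot of the shares sets the 3 testes with high CDH17 apart from each other: one is rich in FABP2 and fxyd12, one is nearly all CDH17, and one is mostly fxyd12 and CDH17.

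Other genes of the intestinal epithelium were read from 3 lists, of absorptive enterocyte genes, brush border and epithelial junction genes, and intestinal transcription factors, with 118 of 130 identifiers tested. Some were already abundant in DMSO testes, such as krt8 (1043 CPM) and cdh1 (107 CPM) of the second list. A change in these lists is therefore not particular to gut cells. At 10 nM against DMSO, 15 of the 118 rose and 5 fell by edgeR's quasi-likelihood test with Benjamini-Hochberg adjustment (under 0.05), 16.9% of the list genes against 10.8% of all genes tested. Of all genes, 7.4% rose and 3.44% fell. The median log2 fold change was 0.45 over the list genes and 0.06 over all genes, and 89 of the 118 were above 0. The share of all genes above 0 is not given here. Ranges of the groups did not overlap for 13 of the 118, or 11%, against 6.13% of all genes tested. Of those 13, 8 were higher at 10 nM. With 10 nM replicates 1 and 5 left out, 3 of 121 list genes tested passed, and 458 of all 24497 genes tested did. Without the 5 libraries that lay apart, 2 of 122 list genes tested rose and 3 fell, and 468 of all 24575 genes tested passed. The count of list genes was also lower by more than 1.5 times without DMSO replicate 2 (10 genes) or 4 (12), and without 10 nM replicate 1 (9), 5 (10) or 6 (12). The count of all genes dropped in those fits too, from 2609 to 826, 1328, 965, 894 and 1457, in the same order.

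Among the 47 enterocyte genes tested, 5 rose, 1 fell and 41 did not pass. The share that passed, 12.8%, was near the 10.8% of all genes tested. SLC3A1, the heavy subunit of an epithelial amino acid transporter, fell at 10 nM to 6.73 ± 1.33 CPM, against 16.5 ± 6.16 CPM in DMSO testes (SD, n = 6 each), with a log2 change of -1.29 ± 0.23 (SE) and an adjusted p of 0.00395 in edgeR's quasi-likelihood test. All 6 libraries at 10 nM lay below the DMSO range, the opposite side from the members. CD36, which takes up fatty acids, rose with a log2 change of 1.32 ± 0.28 and an adjusted p of 0.0109 in the same edgeR test, with 6 of 6 libraries at 10 nM above the DMSO range. The brush border protease meprin beta (MEP1B, ENSDARG00000037533) rose by 0.92 ± 0.20 on the log2 scale. A second identifier with that symbol, ENSDARG00000040683, did not pass and had a log2 change of -0.31 ± 0.15. Each of these 3 calls held whichever of the 18 libraries was left out, with adjusted p of at most 0.0358 in edgeR. Without 10 nM replicates 1 and 5 together, SLC3A1 still passed, and CD36 and MEP1B did not, with adjusted p of 0.0744 and 0.0507 in edgeR.

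ADA (adenosine deaminase), SLC7A7 (a light subunit of amino acid transporters) and fabp1b.2 (a fatty acid-binding protein of the liver type) also passed, with log2 changes of 1.01 ± 0.27, 0.78 ± 0.21 and 4.37 ± 1.35 (SE). Their calls ended in 6, 7 and 12 of the 18 fits that left out 1 library, among them those without DMSO replicates 2 and 4 and without 10 nM replicates 1, 5 and 6. The level of fabp1b.2 came mainly from 10 nM replicate 4, with 910 counts and 30.6 CPM. In that testis CDH17, VIL1, FABP2 and fxyd12 were not high, while the SLC15A1 identifier ENSDARG00000044528 had its highest level, 1.51 CPM.

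Among brush border and junction genes, 8 rose, 3 fell and 36 did not pass. The share that passed was 23.4%, against 10.8% of all genes tested. The simple-epithelium keratin krt8 rose to 1966 ± 629 CPM at 10 nM, against 1043 ± 220 CPM in DMSO testes (SD, n = 6 each), with an adjusted p of 0.0096 in edgeR's quasi-likelihood test, and krt18a.1, its usual partner keratin, rose by 1.05 ± 0.24 on the log2 scale. The epithelial cadherin cdh1 fell to 71.0 ± 8.59 CPM, against 107 ± 11.1 CPM in DMSO testes, and st14a, a membrane serine protease of epithelia, fell by 0.77 ± 0.18 on the log2 scale. Each of these 4 calls held whichever of the 18 libraries was left out. Without 10 nM replicates 1 and 5 together, krt8 still passed in edgeR, whereas krt18a.1, cdh1 and st14a had adjusted p of 0.0538, 0.102 and 0.0937. The scaffold gene pdzk1, whose protein anchors transporters of brush borders in gut and kidney, rose by 3.66 ± 0.88 on the log2 scale. It did so through 10 nM replicates 1 (27.1 CPM) and 5 (14.3 CPM), since the other 16 libraries had at most 2.02 CPM, and the call ended without 10 nM replicate 1. The gene pdzk1ip1, whose protein binds that scaffold, rose by 1.80 ± 0.44, and its call ended without DMSO replicate 2 or 10 nM replicate 1 or 5. Chosen after their values were seen, the other 5 that passed were krt18b, ESRP1, cldn7a and epcam, which rose, and the brush border protocadherin gene cdhr5b, which fell by 0.86 on the log2 scale. Of the 18 fits that left out 1 library, krt18b passed in 13, ESRP1 in 11, cdhr5b in 10, cldn7a in 9 and epcam in 6, and all 5 calls ended without DMSO replicate 2 or 10 nM replicate 1, 5 or 6.

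Of the 24 intestinal transcription factors, 2 rose, 1 fell and 21 did not pass. The share that passed, 12.5%, was near the 10.8% of all genes tested. TFCP2L1 rose by 1.05 ± 0.21 (SE) on the log2 scale, with an adjusted p of 0.00941 in edgeR's quasi-likelihood test. HNF4G, a nuclear receptor of intestinal and kidney epithelium, rose by 1.36 ± 0.30. Without 10 nM replicates 1 and 5 together, HNF4G still passed in edgeR and TFCP2L1 had an adjusted p of 0.0584. The repressor gene prdm1b fell by 1.37 ± 0.39, a call that ended without any 1 of DMSO replicates 1, 2, 4 and 6 and 10 nM replicates 1 and 5.

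At 3 nM against DMSO, 1 of the 118 list genes passed, or 0.847% against 0.208% of all genes tested (0.129% higher and 0.079% lower). It was again SLC3A1, which fell to 5.08 ± 1.13 CPM (SD, n = 6), with a log2 change of -1.70 ± 0.23 (SE) and an adjusted p of 0.0012 in edgeR's quasi-likelihood test. The median log2 fold change of the lists was 0.13, against 0.02 over all genes. At 10 nM against 3 nM, 0 of the 118 passed in edgeR and 4 did in DESeq2, while 28 had an unadjusted p under 0.05 in edgeR, and 0.129% of all genes passed (0.121% higher and 0.00831% lower). The comparisons with DMSO share the DMSO libraries.

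The intestinal list genes also stood high in single testes. At 4 or more times their median of the 18 libraries were 12 of 118 (10.2%) in 3 nM replicate 1, 11 (9.32%) in 10 nM replicate 6, 7 (5.93%) in each of 10 nM replicates 1 and 5, and 6 (5.08%) in 10 nM replicate 4. The shares of all genes at that level were 0.37%, 1.8%, 1.91%, 2.49% and 0.349%, in the same order. DMSO replicate 1 had 4 such list genes (3.39%, against 0.599% of all genes), and the other 12 libraries had at most 2. The summed level of the enterocyte list was 371 CPM in 3 nM replicate 1 and 365 CPM in 10 nM replicate 1, against 219 to 237 CPM in DMSO testes. It lay above that range in every library at 10 nM (239 to 365 CPM), among them testes where CDH17 was not high.

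The genes behind those counts differed from testis to testis, and they were chosen after their values were seen. In 3 nM replicate 1 they included FABP6, which binds bile acids inside ileal enterocytes, at 104 CPM, and SLC10A2, the transporter that takes bile acids up there, at 2.49 CPM. For FABP6 the next library, 10 nM replicate 4, had 10.5 CPM, no other passed 4.14 CPM, and SLC10A2 had at most 0.711 CPM outside 3 nM replicate 1. The intestinal cytochrome P450 gene cyp3a65 had 34 CPM in 3 nM replicate 1, against at most 1.13 CPM in DMSO testes. The galectin gene lgals2b had 400 CPM, the keratin gene krt92 had 365 CPM and the claudin gene cldn15la had 6.93 CPM in 3 nM replicate 1, where the other 17 libraries had at most 5.64, 7.82 and 1.55 CPM. None of these 6 reached 4 times its median in 10 nM replicate 1 or 5, where cyp3a65 had at most 4.07 CPM and lgals2b at most 3.81 CPM.

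In 10 nM replicate 1 the elevated intestinal list genes included CUBN, a receptor that takes up vitamin B12 complexes in gut and proteins in kidney tubules, at 55.6 CPM, and the neutral amino acid transporter SLC6A18 at 18.8 CPM. They also included pdzk1 and pdzk1ip1. In 10 nM replicate 5 they included slc9a3.2, a sodium and proton exchanger, at 13.1 CPM, epcam at 121 CPM and the epithelial transcription factor ELF3 at 26.9 CPM. In 10 nM replicate 6 they included the keratin genes krt4 at 954 CPM, krt91 at 525 CPM, krt18b at 262 CPM and krt5 at 219 CPM.

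CDH17 is also a marker of kidney tubules, and the kidney tubule list was elevated in some of the testes high for CDH17 but not in all. At 4 or more times their median were 5 of its 16 tested genes (31.2%) in 10 nM replicate 1 and 5 in 10 nM replicate 5, against 0 in 3 nM replicate 1. Of all genes tested, 1.91%, 2.49% and 0.37% reached that level in these libraries, in the same order. The summed level of the list was 263 CPM and 258 CPM in 10 nM replicates 1 and 5, against 95.6 to 129 CPM in the other 16 libraries, with 110 CPM in 3 nM replicate 1. Between 0 and 2 of its 20 identifiers had a count of 0 in a library. The part that kidney tubule RNA has in the CDH17 levels was not tested.

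The kidney transporters that follow were also picked for these levels. SLC12A3, the sodium-chloride cotransporter of the distal tubule, had 43.5 CPM in 10 nM replicate 1 and 22.6 CPM in replicate 5, against 1.98 CPM in 3 nM replicate 1. The organic cation transporter SLC22A2 had 40.9 and 47.8 CPM in 10 nM replicates 1 and 5, against 3.85 CPM in 3 nM replicate 1. The renal glucose transporter SLC5A2 had 20.6 and 8.85 CPM in those 10 nM libraries, against 1.28 CPM in 3 nM replicate 1. Among these chosen genes, FABP6, lgals2b and krt92 were high in 3 nM replicate 1, and the 3 kidney transporters were high in 10 nM replicates 1 and 5. The whole enterocyte list, by its summed level above, did not divide 3 nM replicate 1 from 10 nM replicate 1. At 4 or more times their median were 4 of its 47 tested genes in 3 nM replicate 1, among them FABP6, SLC10A2 and cyp3a65. In 10 nM replicate 1 there were 2, CUBN and SLC6A18. FABP2 and fxyd12 were high in both 3 nM replicate 1 and 10 nM replicate 5. CDH17, VIL1, FABP2 and fxyd12 are called here by their own names.

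**Figure D3:**
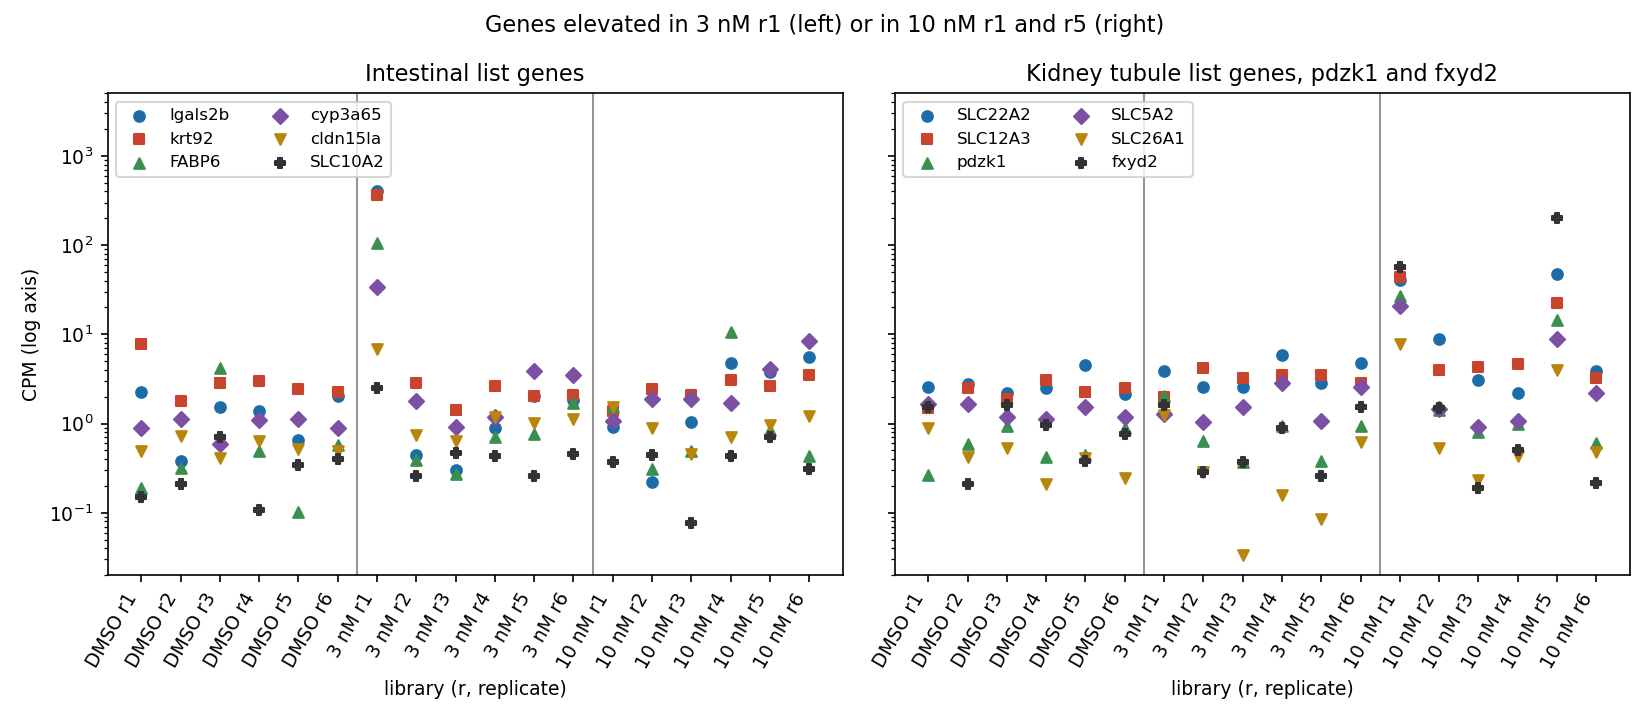
Level in CPM on a log axis of 6 intestinal list genes (left) and of 4 kidney tubule list genes with pdzk1 and fxyd2 (right) in each of the 18 libraries, with grey lines between groups. The left genes stand high in 3 nM replicate 1, where lgals2b has 400 CPM, and the right genes in 10 nM replicates 1 and 5, where fxyd2 has 56.8 and 199 CPM.

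The plot of the companion genes adds fxyd2, another FXYD regulator of the sodium pump, known in mammals from the kidney. It had 56.8 CPM in 10 nM replicate 1 and 199 CPM in replicate 5, against at most 1.63 CPM in the other 16 libraries. By group, 5 of the 16 kidney genes rose at 10 nM against DMSO in edgeR's quasi-likelihood test (31.2%, against 10.8% of all genes): SLC12A3, SLC22A2, SLC13A3, PAX8 and SLC5A2. Without 10 nM replicates 1 and 5, 0 of these 5 passed and 1 other gene of the list did. The count was also 1 without 10 nM replicate 5 alone, 2 without 10 nM replicate 1 or DMSO replicate 1, 2 or 4, and 3 without DMSO replicate 3, 5 or 6.

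Markers of other cells were high in some of the same testes and in others. In the edgeR test of 10 nM against DMSO, to which the counts that follow belong, 7.4% of all genes rose and 3.44% fell. The leukocyte list summed to 2531 and 2644 CPM in 10 nM replicates 1 and 5 and 1269 CPM in 10 nM replicate 6, against 532 to 852 CPM in DMSO testes, and 10 of its 40 genes rose at 10 nM in the same edgeR test, among them lyz and mmp13a, by 5.78 ± 0.90 and 6.15 ± 1.05 (SE) on the log2 scale. The exocrine pancreas list summed to 5930 CPM in DMSO replicate 4, 3769 CPM in 10 nM replicate 4 and 3433 CPM in 10 nM replicate 5, and 0 of its 23 genes passed at 10 nM against DMSO in edgeR's quasi-likelihood test. The liver list summed to 1272 CPM in 10 nM replicate 6 and 981 CPM in replicate 5, against 285 to 664 CPM in DMSO testes, and 1 of its 34 genes passed. It was also above that range in 3 nM replicates 5 (856 CPM) and 6 (794 CPM), where no member reached 4 times its median. The goblet cell list summed to 361, 388 and 409 CPM in 10 nM replicates 1, 5 and 6, against 224 to 353 CPM in DMSO testes, and 6 of its 20 genes rose while 1 fell. Of the 18 fits that left out 1 library, B3GNT3 (ENSDARG00000058100), which rose, and muc5.1, which fell, passed in 18, and AGR2 in 5. Without 10 nM replicates 1 and 5 together, the lowest adjusted p among the goblet calls was 0.0787 in edgeR, for muc5.1. Of the 14 enteroendocrine genes 3 rose, and of the 19 gut smooth muscle and enteric neuron genes 3 rose and 1 fell. Their part in the member levels was not tested. Of the 26 testis genes, 4 fell and 0 rose at 10 nM, and their median log2 fold change was -0.33. Of the 18 fits that left out 1 library, MSH4 and CYP17A1 of the testis list passed in 18, inha in 7 and sycp2 in 3. Among the leukocyte calls, lyz, mmp13a and nkl.2 passed in 18 of those fits, and the others in 4 to 12. The enteroendocrine gene gcga passed in 18 and penka in 7, and the liver gene c3a.1 passed in 7.

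**Figure D4:**
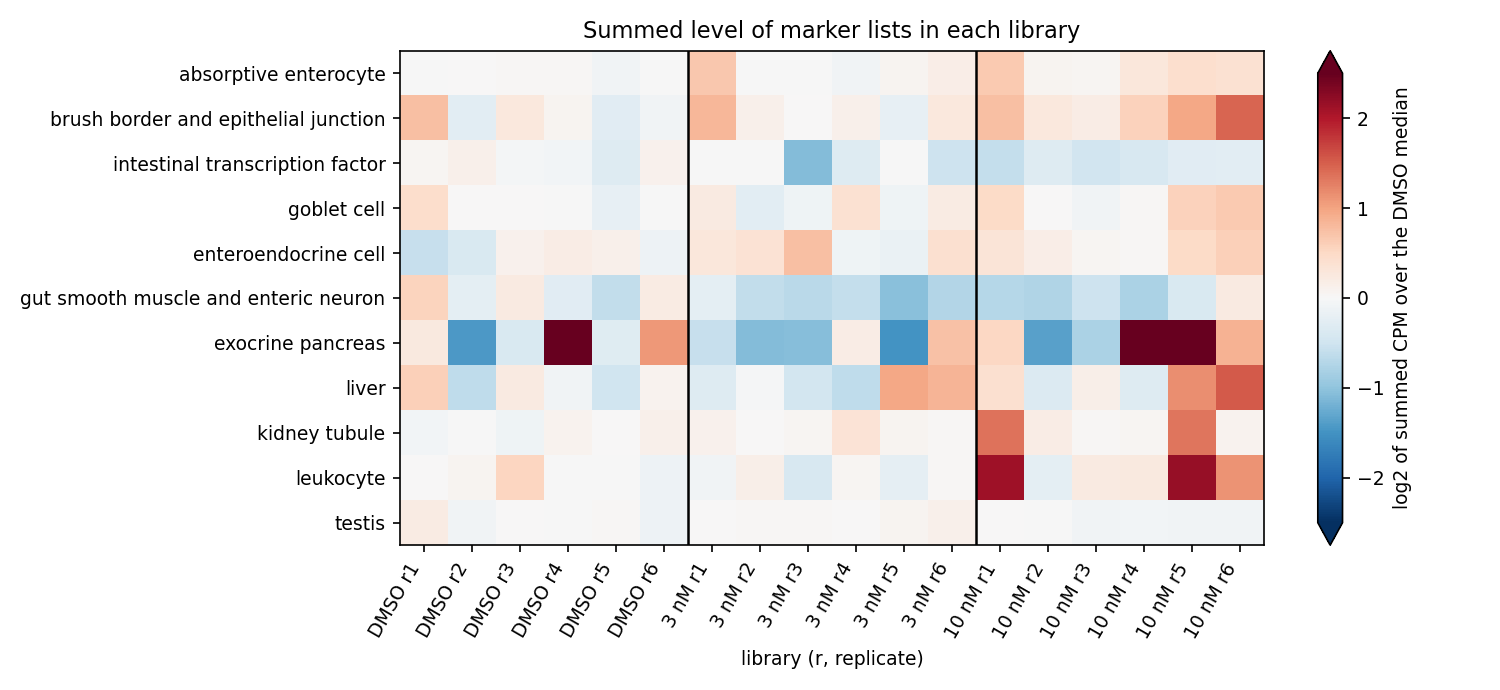
Summed CPM of 11 marker lists in the 18 libraries, as log2 over the median of the DMSO libraries, with colours capped at 2.5 either way and black lines between groups. The kidney tubule list is highest in 10 nM replicates 1 and 5, and the leukocyte list in 10 nM replicates 1, 5 and 6. The pancreas list is highest in 3 scattered libraries. The summed testis list is nearly even, although 4 of its 26 genes fell at 10 nM against DMSO (15.4%, against 3.44% of all genes).

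The map of the lists shows that testes with high members differed in which other lists were high. In 3 nM replicate 1 the 2 lists at the top, enterocyte and brush border, lay above the DMSO range. The enteroendocrine list did too, with 82.3 CPM against 45.4 to 76.2 CPM in DMSO testes, and was higher in 3 nM replicate 3 (113 CPM). The brush border list passed the DMSO range narrowly, with 4730 CPM against 4464 CPM in DMSO replicate 1, and was higher in 10 nM replicates 5 (5153 CPM) and 6 (7319 CPM). The leukocyte, liver, pancreas and kidney lists lay near or below the DMSO medians in 3 nM replicate 1. In 10 nM replicate 5 every list except testis, transcription factors and gut smooth muscle was above the DMSO medians.

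The 20 genes with the level pattern most like the mean of CDH17, VIL1, FABP2 and fxyd12 were found among 19006 named genes that averaged 1 CPM or more, by Pearson correlation of log2 CPM over the 18 libraries. The first 4 were the claudin gene cldn3c (0.93), si:dkey-33i11.9 (0.92), tmc4 (0.91) and the sodium pump gene atp1a1a.4 (0.89), and the last, dhrs11b.2, had 0.84. In 13 of the 20 the highest 3 libraries were the same as for CDH17, and 10 nM replicate 5 was the highest library in 15. The measure rests on those testes: without 3 nM replicate 1 and 10 nM replicates 1 and 5, 2 of the 20 remained among the 20 most like, and without the 5 libraries that lay apart 6 did. It also rests on the measure, since by Spearman correlation over the 18 libraries 2 of the 20 were among the 20 most like. Against 1 member at a time, 15 of the 20 were among those most like fxyd12, 8 among those most like CDH17 or FABP2, and 2 among those most like VIL1. The 20 genes most like CDH17 and the 20 most like VIL1 shared 0.

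Genes found this way are high where the members are because they were picked for it, and their values are a description. The claudin gene cldn3c had 33.6 CPM in 3 nM replicate 1, 8.45 CPM in 10 nM replicate 1 and 73.2 CPM in 10 nM replicate 5, against 2.34 to 6.21 CPM in DMSO testes. The sodium pump gene atp1a1a.4 had 185 CPM in 3 nM replicate 1 and 126 and 125 CPM in 10 nM replicates 1 and 5, against 14.9 to 26 CPM in DMSO testes. The mucin gene muc13b, also among the 20, had 5.22 CPM in 3 nM replicate 1 and 8.77 and 9.37 CPM in 10 nM replicates 1 and 5, against 0.113 to 0.533 CPM in DMSO testes.

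**Figure D5:**
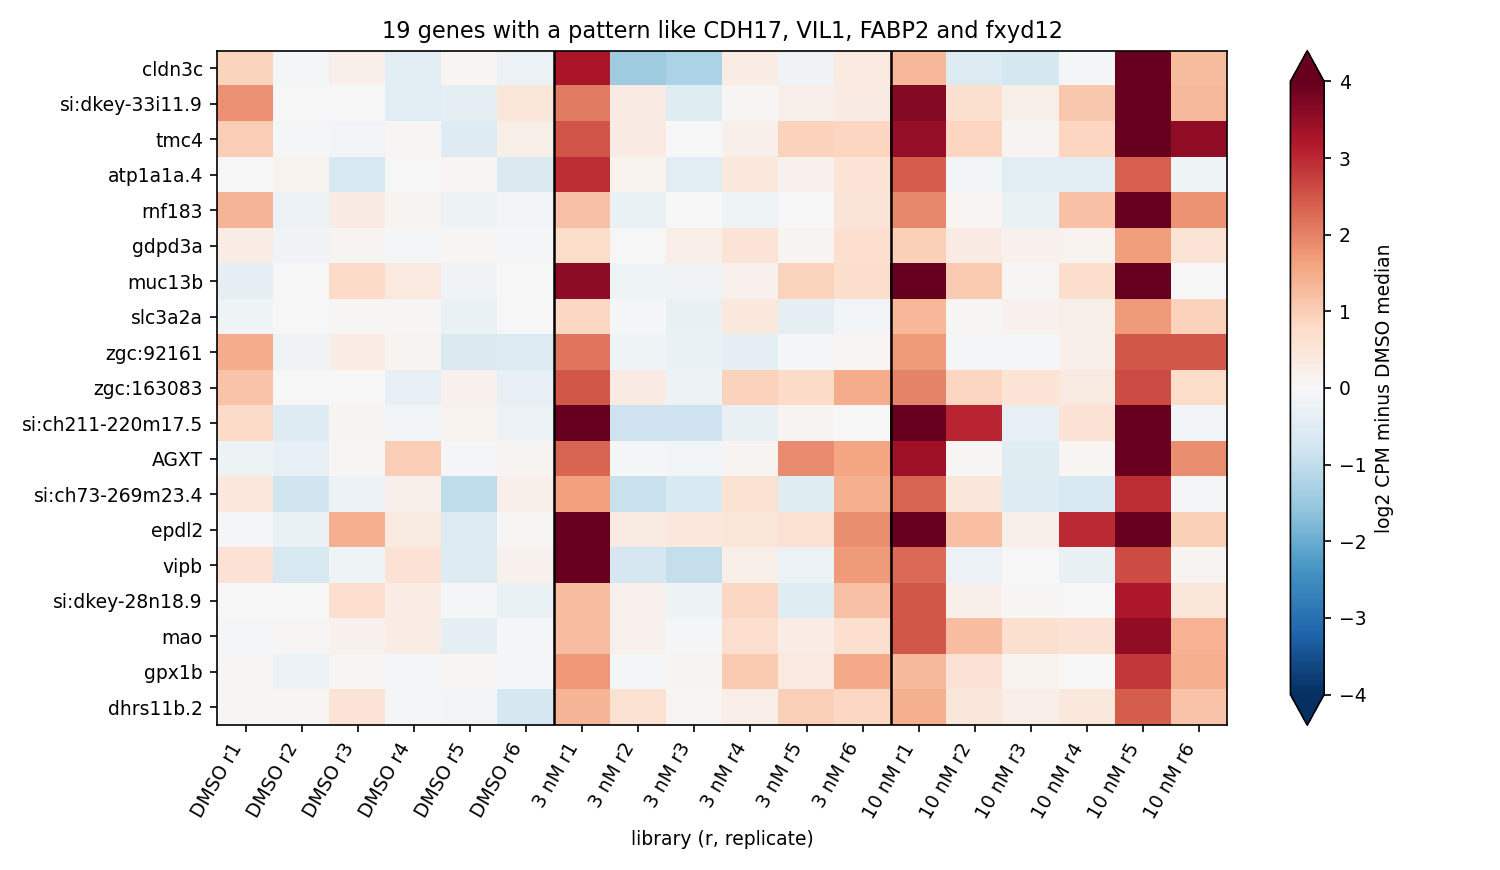
Level of 19 of the 20 genes most like the mean of CDH17, VIL1, FABP2 and fxyd12 in the 18 libraries, as log2 CPM minus the median of the DMSO libraries, with colours capped at 4 either way. Most of the 19 are darkest in 10 nM replicate 5, with 3 nM replicate 1 and 10 nM replicate 1 next, and most are pale elsewhere.

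The map of the like genes also shows DMSO replicate 1 and 10 nM replicate 6 above the DMSO median for some of the 19. These are the libraries that stood next highest for fxyd12 and highest for VIL1.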

How the data were processed

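RNA was measured in 18 adult zebrafish testis libraries, 6 per group. Each deposited table gives the authors' raw counts per gene, as whole numbers with no scaling. FastQC, STAR, HTSeq, edgeR and the build GRCz10 are named, without versions, in the submitters' processing notes. Libraries were stranded and read from 1 end, per the labels' protocols. No source used here gives the strand setting of the counting, so overlapping genes and close paralogs are uncertain. The tables share 35117 identifiers, with 0 naming no gene, and the name table has a symbol for 27000. Depth ran from 16.24 to 29.85 M counts (M, 1e6). Replicates differed by at least 15.1 in chi-square per degree of freedom, well beyond counting error, and each was kept as a sample.

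The test was that of edgeR 4.0.16, run in R 4.3.3 (filterByExpr, TMM scaling, robust quasi-likelihood F-test, two-sided, 1 fit of the 18 libraries, 15 residual degrees of freedom), with Benjamini-Hochberg adjustment over 24053 genes and calls under 0.05. DESeq2 1.42.0 was an alternative. Standard errors are the log2 change over the square root of its F. CPM uses the scaled totals, and log2 CPM adds a prior count of 2. Code was checked on simulated counts.

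The members and the 11 marker lists (446 names, 315 matched) were chosen with earlier results of these data known. Named genes were the members, up to 6 called genes per list by smallest p, the 20 like genes and cyp1a, of which 1 is not reported here. The other genes named were chosen after their values were seen. Alternatives changed the scaling, the filter on low counts, the libraries, the replicate block, the tool and the prior count. Leaving out the 3 libraries with the highest CDH17 level, the kidney list counts, the folds of 2 and 8 over the median and the likeness to single members were added after seeing the data. No genome of the build or sequence table was used here, so no position or sequence is given.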

Additional observations from a re-analysis of the deposited data

Results flagged for a closer look

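In each group of 6 libraries, values were examined for a single library far from the rest by Dixon's rule at 95%. For normally distributed values it marks about 1 in 20 groups by chance. It was applied to CPM without logs, and the lists were read in the same libraries, so that rate may not hold here. The members were selected on these levels, so their marks are a description and not a test. At 3 nM it was replicate 1 for CDH17 (30.6 CPM), VIL1 (6.15 CPM), FABP2 (21.9 CPM) and fxyd12 (27.7 CPM). At 10 nM it was replicate 5 for FABP2 (12.5 CPM) and fxyd12 (184 CPM). At 10 nM, CDH17 and VIL1 had more than 1 high library, which this rule does not mark.

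In DMSO testes, replicate 1 stood apart for FABP2 (0.865 CPM) and fxyd12 (1.47 CPM), and replicate 4 was low for the SLC15A1 identifier ENSDARG00000044528 (0.248 CPM). Of 33 sets of summed list levels, 7 had such a library. At 3 nM, replicate 1 stood apart for the enterocyte list (371 CPM) and the brush border list (4730 CPM), and replicate 4 for the kidney tubule list (129 CPM). DMSO replicate 1 stood apart for the goblet cell list (353 CPM), DMSO replicate 4 for the exocrine pancreas list (5930 CPM) and DMSO replicate 3 for the leukocyte list (852 CPM). Replicate 6 at 10 nM stood apart for the gut smooth muscle and enteric neuron list (648 CPM).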

How the results depend on the processing

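At 10 nM against DMSO, 2609 genes and 20 intestinal list genes passed. Both counts moved by over 1.5 times without 10 nM replicates 1 and 5 (458 and 3), without the 5 libraries that lay apart (468 and 5), without the 3 libraries highest for CDH17 (341 and 1), with the replicate block (684 and 7) and with DESeq2 (4585 and 35). With library totals only it was 1295 genes, and with the 2 groups alone 1699. Leaving out 1 library gave 826 to 3855 genes and 9 to 27 list genes. At 3 nM against DMSO, 50 genes passed (26 with the block, 317 with DESeq2, 25 to 55 without 1 library), and 1 list gene (6 with DESeq2, 1 in every fit without 1 library). At 10 nM against 3 nM, 31 genes and 0 list genes passed. These became 91 and 1 with totals only, 64 and 1 with a filter of 1 CPM in 6 libraries, and 733 and 4 with DESeq2. No gene, 0, passed in edgeR without 10 nM replicates 1 and 5, without the 5 libraries, without the 3, with the block or with the 2 groups alone, where 2978, 1663, 2899, 2205 and 2177 had an unadjusted p under 0.05. Without 1 library the counts were 0 to 355 genes and 0 to 2 list genes. The cause was not tested. The balance of calls turned in 3 of these fits. List genes at 10 nM against DMSO, 15 higher and 5 lower, came to 2 higher and 3 lower without the 5 libraries and to 0 higher and 1 lower without the 3. All genes at 10 nM against 3 nM, 29 higher and 2 lower, came to 0 higher and 1 lower without 3 nM replicate 4.

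The labels do not say that replicate numbers pair the samples. Deviations of same-numbered libraries correlated at -0.486 to 0.338, over 0.1 in 6 of 18 pairs, and 4 of 18 libraries were most like one with their own number. These values neither show nor exclude a pairing. Of the 18 member log2 fold changes, 8 moved by more than the spread between replicates without the 3 libraries, 8 without the 5, and 0 under the scaling alternatives. A prior count of 0.5 left every level of the 6 identifiers in the 18 libraries within that spread. Counts of 4 or fewer, as for FABP2 in most DMSO testes, limit the folds that can be given.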

Other observations

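Some epithelial genes were high in testes where CDH17 was not, as well as in testes where members were high. The keratin gene krt5 had 668 CPM in DMSO replicate 1 and 422 CPM in 10 nM replicate 4, against at most 13.3 CPM in the 13 libraries other than these and 3 nM replicate 1 (144 CPM) and 10 nM replicates 5 (36.4 CPM) and 6 (219 CPM). The gut epithelial surface antigen gene gpa33a followed the same libraries, with 8.01 CPM in DMSO replicate 1, 5.82 CPM in 10 nM replicate 4, 7.95 CPM in 10 nM replicate 5, 4.24 CPM in 10 nM replicate 6 and 2.84 CPM in 3 nM replicate 1. Its level in the other 13 libraries did not pass 0.549 CPM. CDH17 was 4.02 CPM in DMSO replicate 1 and 3.87 CPM in 10 nM replicate 4, within the band of most testes. In DMSO replicate 1, however, FABP2 (0.865 CPM) and fxyd12 (1.47 CPM) were at their highest among the DMSO testes.

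ELF3, an epithelial transcription factor, had 10.4 CPM in DMSO replicate 1, 10.6 CPM in 3 nM replicate 1 and 26.9 CPM in 10 nM replicate 5. AGR2, a protein disulfide isomerase of goblet cells, had 79.2 CPM in 10 nM replicate 5, 72.0 CPM in 10 nM replicate 6 and 24.6 CPM in DMSO replicate 1. These values were chosen after they were seen, and no test was made of them.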
